A study of Arabidopsis thaliana with 18 samples.

Results

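The late effect of salicylic acid (SA) was taken from 12 of the 18 ATH1 GeneChip arrays of a series on Arabidopsis thaliana. They are 6 arrays of plants that received SA at 0.30 mM together with silwet, a wetting agent, at 0.02%, and 6 of plants that received only the wetting agent. Each treatment had 3 biological replicates at 28 h and 3 at 52 h. All plants were of the natural accession Kin-0, and both treatments held silwet at the same concentration, so the plants given only silwet are the controls throughout. The labels name no tissue, plant age or growth condition, and untreated plants were not analysed here. The remaining 6 arrays, of both treatments at 4 h, chose the early responders described below and gave the 4 h values set beside the late ones, and entered neither the late fit nor its filter. The SA effect was the difference of log2 signal between SA and silwet, averaged over 28 h and 52 h, with time and replicate number as factors.

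SA is a plant defence hormone that builds up after attack by biotrophic pathogens. In Arabidopsis it is perceived through the NPR proteins, which act with TGA transcription factors to switch on pathogenesis-related, WRKY and detoxification genes. Applied SA is removed by glucosylation, methylation and hydroxylation, and marker genes are therefore commonly followed over hours and days. Of the leaf, guard cell and root markers looked at, RCA, the activase of Rubisco in mesophyll, had signals of 1343 to 4055 on the 12 late arrays. FMA, a guard cell regulator, had 33.5 to 66.4, and the root-expressed beta-glucosidase PYK10 had 35.5 to 144. EXPA7, the other root marker with a named probe set, had 1.03 to 11.8 and was too dim to test.

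No gene passed the test for a late SA effect. Of 14688 probe sets tested, 0 (0%) had an adjusted p under 0.05 in limma for the mean of both late times, and the lowest adjusted p was 0.989. The same held for 28 h alone, for 52 h alone and for the difference between both times, where 0 of 14688 (0%) passed in each case and the lowest adjusted p values were 1.00, 0.905 and 0.999. At an unadjusted p under 0.05 limma gave 369 probe sets (2.51%) for the late mean, 160 higher and 209 lower with SA. The numbers were 138 (0.94%) at 28 h, 591 (4.02%) at 52 h and 263 (1.79%) for the difference, where the threshold gives 5% under no effect. A count of 0 passing was also obtained in each of the 29 alternative fits made for each of these comparisons, and the number at an unadjusted p under 0.05 varied widely among them. It ran from 91 to 905 (0.62% to 6.24%) for the late mean and from 46 to 641 (0.313% to 4.36%) at 28 h. The ranges were 122 to 1345 (0.831% to 9.2%) at 52 h and 64 to 822 (0.436% to 5.6%) for the difference.

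The size of effect that these arrays leave room for was small for most genes. The 95% interval of the late SA effect lay within 2-fold in both directions for 13903 of 14688 probe sets (94.7%). Its median half-width was 0.35 on the log2 scale, which corresponds to 1.27-fold. Split by mean signal into 3 sets of 4896 probe sets, it was 0.46 in the dimmest set, 0.33 in the middle one and 0.28 in the brightest. The share of intervals within 2-fold was 86.6%, 98.1% and 99.2% in the same order. These intervals hold for 1 probe set at a time and were not widened for the number of probe sets. The late log2 changes had a median of -0.01, with the 5th percentile at -0.34 and the 95th at 0.25.

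At least a 2-fold late difference in size was found for 18 probe sets (0.123%), 6 higher and 12 lower with SA, and for 2 of the 18 the mean signal was above the filter level. The corresponding numbers were 61 (0.415%) at 28 h, 38 higher and 23 lower, and 140 (0.953%) at 52 h, 36 higher and 104 lower. Without the 52 h pair of replicate 1, the number at least 2-fold was 193 at 52 h and 30 for the late mean. None of these probe sets passed limma's test.

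One pair of arrays stood apart from the rest. When the SA array was set against the silwet array of the same time and replicate number, 12.3% of probe sets differed at least 2-fold at 52 h in replicate 1. The other 5 pairs had 1.86% to 4.09%. Replicate 1 arrays were compared with the mean of replicates 2 and 3 of their own group, and the deviation of the SA 52 h array correlated with that of the silwet and SA arrays of 28 h at 0.77 and 0.78 (n = 14688 probe sets). Its correlation with the silwet 52 h array, its own partner, was 0.39, and that of the partner with both 28 h arrays was 0.32 and 0.40. Compared with arrays of the other groups, each of the 12 late arrays correlated best with an array of its own replicate number. The labels of this pair were used as given, and whether one of them is wrong was not tested. The 52 h and late values hold only as far as those labels do. The log2 ratio of 3' to 5' control probe sets, a measure of RNA integrity, was 1.41 on the SA 52 h array of replicate 1, 1.44 and 1.63 on the SA and silwet 28 h arrays of that number, and 0.854 on the silwet 52 h array. The other 8 late arrays had ratios of 0.801 to 1.11. At 4 h the replicate 1 arrays had 1.30 after SA and 1.56 after silwet. The part of this ratio in the gene values was not tested beyond the fits that included it as a covariate, in which 0 probe sets passed. Without this pair, in a fit with a block for each other pair, 0 of 14454 probe sets passed in any of the 4 comparisons, with 475 (3.29%) at an unadjusted p under 0.05 for the late mean and 621 (4.30%) at 52 h in limma.

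**Figure D1:**
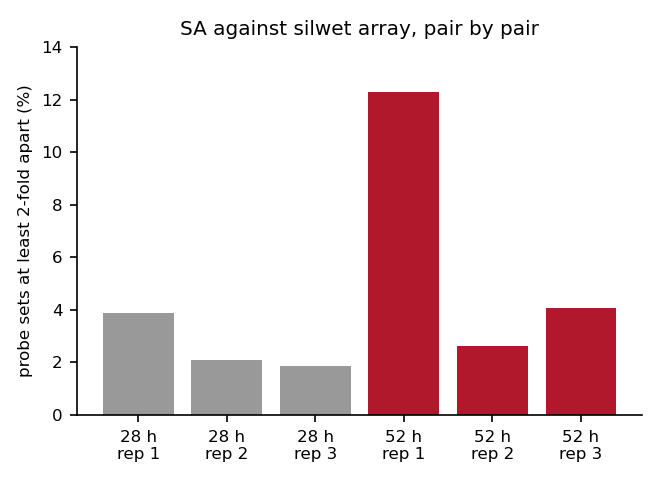
Share of the 14688 probe sets tested (vertical axis, %) whose signal differed at least 2-fold between the SA and the silwet array of 1 time and replicate number, with 1 bar per pair, grey for 28 h and red for 52 h. The 52 h pair of replicate 1 stands at 12.3%, and the other 5 pairs lie between 1.86% and 4.09%.

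The SA effects at the 2 late times were hardly correlated, and neither were those of single pairs within 1 time. Across the 14688 probe sets, the log2 change at 28 h and that at 52 h had a Pearson correlation of 0.05 and a Spearman correlation of 0.07, and 0.07 and 0.08 over the 4896 brightest. The Pearson correlation was -0.03 without the 52 h pair of replicate 1 and -0.09 without replicate 1 at both times. The arrays of both times are separate and share only replicate numbers. SA was above silwet in all 6 pairs for 231 probe sets (1.57%) and below it in all 6 for 251 (1.71%), with median late log2 changes of 0.24 and -0.34. Random signs in 6 pairs would give a similar share in each direction.

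**Figure D2:**
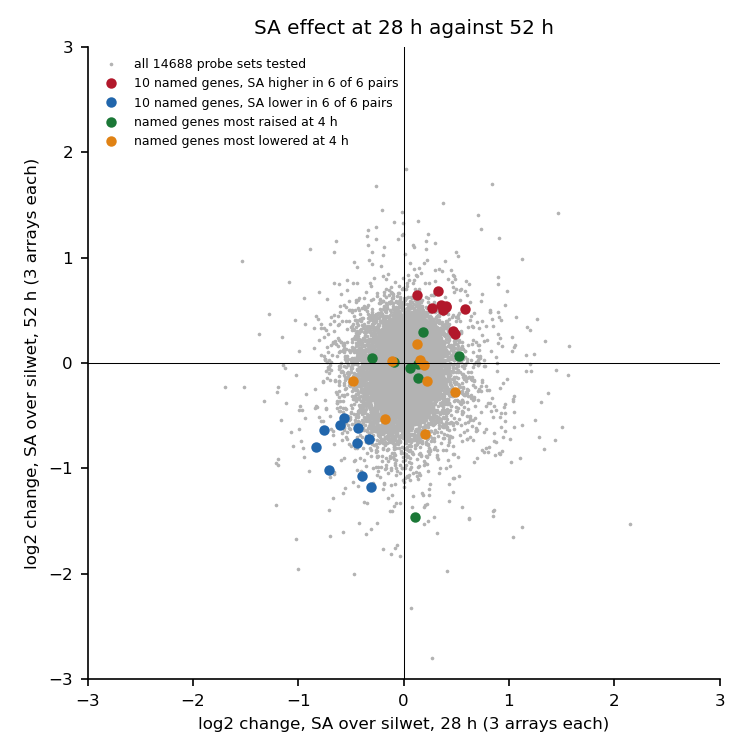
Log2 change of SA over silwet at 28 h (horizontal) and at 52 h (vertical) for every probe set tested (grey), with 10 named genes on each side of 0 in 6 of 6 pairs (red, blue) and the named genes with the largest 4 h changes (green, orange). The cloud is centred on 0 with a Pearson correlation of 0.05, and the red and blue genes lie in the upper right and lower left by the way they were chosen.

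The 20 genes described next were taken as those with 1 gene name, a mean signal above the filter level and the same sign in all 6 pairs, by size of late change. They were chosen for that sign, so the 6 of 6 is a description, and none of them passed the test. On the lower side, AT1G48360, which encodes the FAN1 nuclease of DNA crosslink repair, had signals of 27.1, 52.4 and 52.4 after silwet and 20.2, 25.2 and 30.4 after SA at 28 h, in the order of the replicate numbers. At 52 h it had 33.8, 55.7 and 46.4 after silwet and 20.1, 41.9 and 27.9 after SA. The SA array was the lower one in each pair, while the ranges of the 2 treatments overlapped at both times. Its late log2 change was -0.69 (95% interval -1.03 to -0.36, n = 6 arrays per treatment), with a limma adjusted p of 0.989.

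AT3G01160 had signals of 32.4, 36.5 and 41.7 after silwet at 28 h and 36.3, 37.4 and 48.2 at 52 h. After SA it had 27.7, 26.8 and 26.4 at 28 h and 25.1, 25.9 and 20.8 at 52 h. All 6 SA arrays were below all 6 silwet arrays, and the late log2 change was -0.60 (95% interval -0.92 to -0.28). AT4G40000, of the NOL1/NOP2/sun family of RNA methyltransferases, was separated in the same way, with 23.9 to 31.4 after silwet, 14.3 to 23.6 after SA and a change of -0.54 (95% interval -0.95 to -0.13). All 6 SA arrays lay below all silwet arrays for 3 probe sets (0.0204%), the last of which carries no gene name here and had a change of -0.33. They lay above all silwet arrays for 2 (0.0136%), AT1G17520 with 0.55 and AT3G24530 with 0.30. AT3G24530 and the unnamed probe set were picked out after their values were seen, and limma's adjusted p was 0.989 for all 5.

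The other lower genes were AT1G77580, a filament-like plant protein (-0.86), AT3G04820, a pseudouridine synthase (-0.81), AT1G73710, a pentatricopeptide repeat protein (-0.74), and AT3G56410 (-0.73). AT1G02460, a pectin lyase-like protein, had -0.59, AT3G19370 -0.52 and AT2G18220, of the Noc2 family of ribosome assembly proteins, -0.52. The interval of AT2G18220, -1.12 to 0.08, covered both signs. Of the 12 late values, 4 of AT1G77580, among them all 3 SA values of 28 h, and 5 of AT1G02460 were below the filter level. AT3G04820 and AT1G73710 had 3 such values each, and AT3G56410, AT3G19370 and AT2G18220 had 1 each. Some of the sizes of the lower genes rested on 1 replicate number. For AT3G04820 and AT1G73710 the change was -0.52 and -0.46 without replicate 1. For AT1G77580, AT3G19370 and AT2G18220 it was -0.43, -0.34 and -0.35 without replicate 3. With the 3' to 5' ratio as a covariate the 10 lower genes had changes between -0.88 and -0.51.

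On the higher side, AT1G64510, which encodes ribosomal protein S6 of the plastid, had signals of 513, 468 and 281 after silwet and 634, 599 and 352 after SA at 28 h. At 52 h it had 330, 521 and 331 after silwet and 583, 738 and 548 after SA. The 3 SA arrays at 52 h were all above the 3 silwet arrays of that time, and at 28 h the treatments overlapped. The late log2 change was 0.51 (95% interval 0.21 to 0.80, limma adjusted p 0.989). AT1G49975 had 115 to 169 after silwet and 138 to 252 after SA over both times, overlapping ranges with a change of 0.48 (95% interval 0.17 to 0.78).

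AT1G17520 encodes a DNA-binding protein of the telomere repeat binding family, and its signals were 13.6 to 25.3 after silwet and 25.8 to 37.9 after SA, a change of 0.55 (95% interval 0.09 to 1.01). The other higher genes were AT3G18560 (0.47), AT3G28500, an acidic protein of the large cytosolic ribosomal subunit (0.46), and ARL, an ARGOS-like regulator of organ growth (0.44). AT1G34630 (0.40), the glucomannan synthase family member CSLA03 (0.39), AT5G40470 (0.39) and AT1G21830 (0.38) completed the 10. Without replicate 1 the change was 0.18 for AT3G28500 and 0.24 for ARL, and without replicate 2 it was 0.34 for AT1G17520. AT3G18560 was below the filter level on 7 late arrays and had no value in the fit without replicate 1. The 95% interval covered both signs for AT3G18560 (-0.06 to 0.99) and CSLA03 (-0.05 to 0.82).

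**Figure D3:**
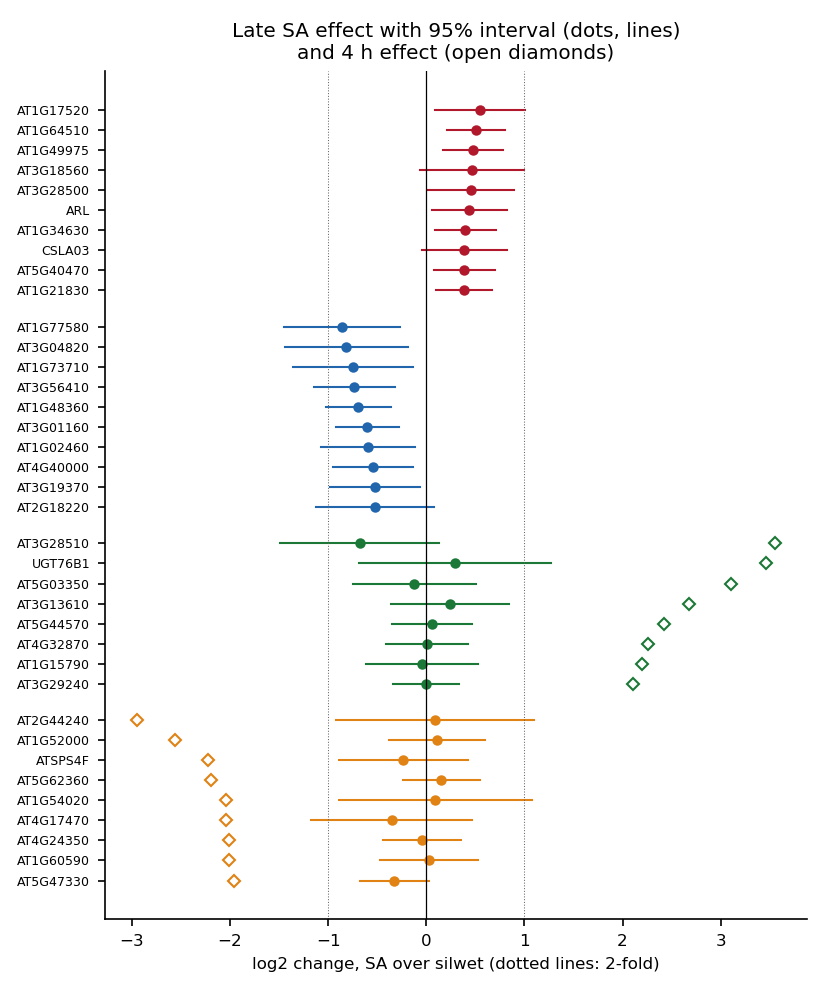
Late log2 change of SA over silwet (dots) with 95% interval (lines) for the 20 genes with 1 sign in 6 of 6 pairs (red higher, blue lower) and for the named genes with the largest 4 h changes (green higher at 4 h, orange lower), whose 4 h change is an open diamond. Dotted lines mark 2-fold, and each open diamond lies outside the late interval of its gene.

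Genes with a large SA effect at 4 h lay on both sides of 0 at the late times, and none passed the test there. The 100 probe sets with the largest higher and the 100 with the largest lower 4 h change were taken from 558 and 622 with an unadjusted p under 0.01 in a limma fit of the 6 arrays of 4 h alone, which share no array with the late comparison. Of those higher at 4 h, 89 were bright enough to test late. Their median log2 change was 1.36 at 4 h and -0.04 late, with late values from -0.98 to 0.53. Of these 89, 37 (41.6%) were above 0, against 47.2% of all probe sets tested and a median of -0.01 over them. None of the 89 passed limma's test late, and 3 had an unadjusted p under 0.05, which 2.51% of all probe sets had.

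Of those lower at 4 h, 98 could be tested late. Their medians were -1.36 at 4 h and 0.00 late, and 49 were above and 49 below 0 late. None passed the test and 5 of the 98 had an unadjusted p under 0.05, against the same 2.51%. In 6 of 6 pairs SA was lower for 2 of the 98 and for 1 of the 89, against 1.71% of all probe sets. It was higher in 6 of 6 pairs for 0 of either list. AT1G73710, given above among the late lower genes, was in the list lower at 4 h. Its change was -1.21 at 4 h and -0.74 late, with a late 95% interval of -1.35 to -0.13 that includes the 4 h value. The late 95% interval excluded a 2-fold increase for 87 of the 89 and a 2-fold decrease for 91 of the 98. Over all probe sets tested it excluded a 2-fold change in both directions for 94.7%, so these counts are not particular to the 4 h lists. The late interval excluded the gene's own 4 h change for 88 of the 89 and 95 of the 98, with 4 h values that were chosen for their size. The 3' to 5' log2 ratio at 4 h was 1.04 to 2.09 on SA arrays and 0.901 to 1.56 on silwet arrays.

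UGT76B1 encodes a glucosyltransferase that acts on SA and N-hydroxypipecolic acid. At 4 h its signals were 91.8, 205 and 322 after silwet and 1598, 2378 and 2116 after SA. At 28 h they were 38.2, 11.8 and 201 after silwet and 48.1, 85.1 and 65.9 after SA, and at 52 h 8.07, 8.21 and 29.7 against 10.1, 12.9 and 17.3. The treatments did not overlap at 4 h and did at both late times. The silwet arrays of 28 h were spread widely, and the late log2 change of 0.29 had a 95% interval of -0.68 to 1.27. It was -0.43 without replicate 2 and 1.04 without replicate 3.

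AT5G03350, a legume lectin family protein often used as an SA marker, had a 4 h signal of 214 to 388 after silwet and 2167 to 3102 after SA. At 28 h it had 333, 202 and 138 after silwet and 141, 110 and 323 after SA, and at 52 h 201, 160 and 122 against 216, 97.5 and 208. The higher array was the silwet one in replicates 1 and 2 at 28 h and the SA one in replicate 3, and the late change was -0.12 (95% interval -0.75 to 0.50). It was on either side of 0 when 1 number was left out, with 0.21 without replicate 2 and -0.68 without replicate 3. AT3G13610, which encodes the F6'H1 oxygenase of scopoletin synthesis, had 151, 51.1 and 132 after silwet against 124, 107 and 113 after SA at 28 h. Its late change was 0.24 (95% interval -0.36 to 0.85), against 2.68 at 4 h, and it was 0.48 without replicate 3.

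Among the lower genes of 4 h, AT5G62360, of the family of invertase and pectin methylesterase inhibitors, had 656 to 1240 after silwet and 128 to 280 after SA at 4 h. At 28 h its signals were 1019, 859 and 1147 after silwet and 1219, 983 and 1086 after SA. At 52 h they were 851, 1158 and 1386 against 1485, 1596 and 846. The ranges overlapped at both late times, with a late change of 0.15 (95% interval -0.24 to 0.55) that ran from -0.03 without replicate 1 to 0.43 without replicate 3. AT1G60590, a pectin lyase-like protein, had -2.01 at 4 h and 0.03 late, and the sucrose-phosphate synthase gene ATSPS4F had -2.22 and -0.23.

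Of the remaining higher genes, AT3G28510, an AAA-type ATPase, had the largest 4 h change, 3.55, and a late change of -0.68 (95% interval -1.49 to 0.13), with 8 of 12 late values below the filter level. AT5G44570, AT4G32870, AT1G15790 and AT3G29240 had late changes from -0.04 to 0.06 after 4 h changes of more than 2 on the log2 scale. AT1G51850 and AT3G60470 were below the filter level on all 12 late arrays, and AT1G76640 on 11 of them, so their late change was not tested. AT2G44240, AT1G52000, AT1G54020, AT4G17470, AT4G24350 and AT5G47330 had late changes from -0.35 to 0.11 after 4 h changes of -2.95 to -1.96. Over all probe sets tested at both, 13711, the 4 h change had a Pearson correlation of -0.06 with that at 28 h and 0.17 with that at 52 h. The latter was -0.01 without the 52 h pair of replicate 1.

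**Figure D4:**
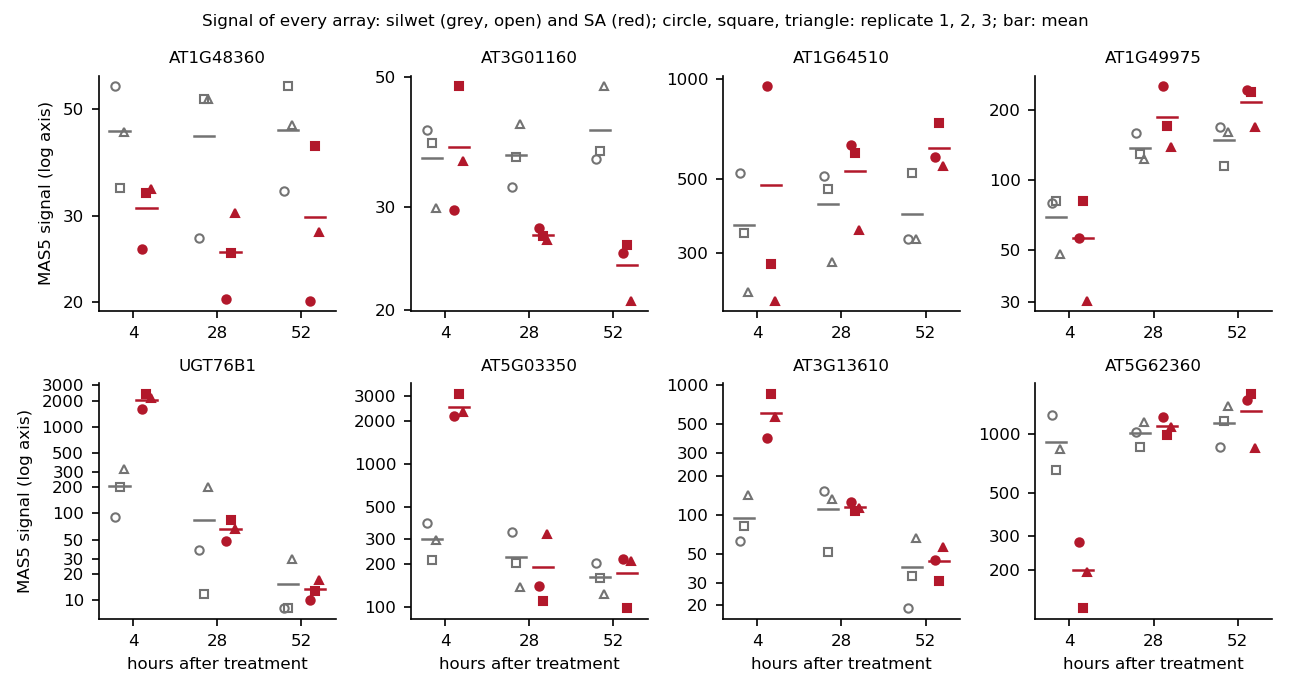
MAS5 signal (vertical, log axis) of 8 genes on every array by hours after treatment, silwet in grey open symbols and SA in red, with circles, squares and triangles for replicates 1, 2 and 3 and bars for group means. In UGT76B1, AT5G03350, AT3G13610 and AT5G62360 the treatments separate at 4 h and overlap at 28 h and 52 h, and in AT3G01160 all SA points of 28 h and 52 h lie below the silwet points.

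Known SA-responsive genes were looked up by locus. Of 19 SA response markers, 3 had a named probe set, and 0 of the 3 passed. GRX480, a glutaredoxin that binds TGA factors, had signals of 161, 80.1 and 127 after silwet and 133, 81.7 and 134 after SA at 28 h, and 62.8, 70.6 and 83.1 against 126, 44.3 and 79.4 at 52 h. The treatments overlapped at both times, and the late change was 0.02 (95% interval -0.38 to 0.42). WRKY53, a transcription factor of defence and senescence, had -0.29 (95% interval -0.93 to 0.35), and the other is AT5G03350, described above. GRX480 and WRKY53 had 4 h changes of 1.43 and 1.70.

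Of the genes for making, perceiving and removing SA and N-hydroxypipecolic acid, 4 could be tested and 0 passed. BSMT1, which methylates SA, had 160, 6.79 and 56.6 after silwet against 98.4, 53.5 and 154 after SA at 28 h. At 52 h it had 10.4, 24.4 and 67.4 against 94.2, 9.96 and 22.0. SA was higher in 3 of 6 pairs, and the change of 0.66 had a 95% interval of -0.69 to 2.02. SAG101, a partner of EDS1 in defence, had -0.30 (95% interval -0.71 to 0.11). AT5G52810, the SARD4 reductase of pipecolate synthesis, had -0.15 (95% interval -0.49 to 0.18) after 1.52 at 4 h.

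In the lists of other hormone and stress pathways 0 genes passed. The jasmonate markers PDF1.2 and THI2.1 had late changes of -0.28 (95% interval -1.69 to 1.14) and 0.09 (95% interval -0.54 to 0.71). PDF1.2, a defensin, ranged from 72.5 to 715 after silwet and from 45.0 to 624 after SA. The cold and drought genes COR15A, COR15B and COR47 had -0.06, 0.07 and -0.02, with all 3 intervals within 0.48 of 0. The auxin conjugating enzyme gene GH3.3 had -0.19 (95% interval -0.59 to 0.20) after 1.82 at 4 h, and WES1, of the same family, had -0.06. The endoplasmic reticulum genes CRT1b, ATERDJ3B and BZIP60, for a calreticulin, a co-chaperone and a stress transcription factor, had -0.37, -0.21 and 0.00. The 4 reference genes had late changes from -0.09 to 0.29.

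GI, a clock component, had 83.9, 450 and 614 after silwet and 66.4, 353 and 455 after SA at 28 h. At 52 h it had 393, 363 and 546 against 120, 464 and 489. It was low on the SA array of replicate 1 at 52 h and on both replicate 1 arrays of 28 h, and its late change was -0.44 (95% interval -1.10 to 0.22). WRKY6, a senescence regulator, had 0.26, and GR1, a glutathione reductase, had -0.13.

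In larger families too, 0 members passed. Of 27 family 1 glycosyltransferases tested, of 47 named, 9 were above and 18 below 0, with a median late change of -0.07 against -0.01 over all probe sets. An unadjusted p under 0.05 was given by limma to 3 of the 27, against 2.51% of all probe sets, namely UGT73B1 (-0.51), UGT76E11 (-0.43) and UGT74D1 (-0.42). Of 12 tested cytochromes P450, 3 were above and 9 below 0, with a median of -0.05. Over all probe sets tested 47.2% were above 0. Of 6 tau and phi glutathione transferases, 4 were above 0. GSTU16 was lower after SA in 6 of 6 pairs, with 26.3 to 77.5 after silwet and 18.3 to 57.9 after SA over both times, overlapping ranges with a change of -0.35 (95% interval -0.68 to -0.02).

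Of 6 WRKY transcription factors, 3 were above and 3 below 0. The lowest was WRKY42 with -0.73 (95% interval -1.63 to 0.17), below the filter level on 9 of 12 arrays. WRKY22, which acts in immune and submergence responses, had 0.43 (95% interval 0.04 to 0.81), with 13.8 to 28.7 after silwet and 20.5 to 28.0 after SA. On 4 arrays WRKY22 was under the filter level. WRKY47 was higher after SA in 6 of 6 pairs with 0.29 (95% interval -0.02 to 0.61). Of 14 expansins and xyloglucan hydrolases, 7 were above and 7 below 0. XTH20, which remodels cell wall xyloglucan, was higher in 6 of 6 pairs with 0.63 (95% interval 0.14 to 1.11). Its signal lay under the filter level on 9 of 12 arrays.

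The 7 light harvesting and photosystem subunits had late changes between -0.02 and 0.09, with 6 above 0 and every interval within 2-fold. Of all probe sets tested, 47.2% were above 0 and 94.7% had an interval within 2-fold. PSAN, a photosystem I subunit, had 2201 to 2792 after silwet and 2342 to 2728 after SA at 28 h and 2439 to 2653 against 2631 to 3055 at 52 h, a late change of 0.08 (95% interval -0.05 to 0.22).

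The plastid genome gave the largest group, 69 probe sets, of which 23 were above and 46 below 0, where 47.2% of all probe sets tested were above 0. Its median late change was -0.04, with 0.00 at 28 h and -0.13 at 52 h. The medians of the 6 pairs were 0.15, -0.26 and -0.06 for replicates 1 to 3 at 28 h and 0.15, 0.04 and -0.63 at 52 h, so the lowest came from replicate 3 at 52 h. The lowest member was rpoB, a subunit of the plastid-encoded RNA polymerase, with signals of 57.7, 13.4 and 27.4 after silwet and 27.0, 4.66 and 23.6 after SA at 28 h. At 52 h it had 25.8, 10.2 and 31.0 against 15.5, 9.72 and 8.55. SA was lower in 6 of 6 pairs and the change was -0.92 (95% interval -1.60 to -0.23), with 6 of the 12 values below the filter level.

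rpl36, a plastid ribosomal protein gene, had 1659, 1295 and 1397 after silwet and 1055, 1059 and 1422 after SA at 28 h, and 1740, 1631 and 1704 against 1149, 1393 and 781 at 52 h. SA was lower in every pair but 1, and all 3 SA arrays of 52 h were below the silwet arrays of that time. The change was -0.48 (95% interval -0.79 to -0.16, limma adjusted p 0.989). The highest member was atpH, for subunit c of the plastid ATP synthase, with 0.46. The late interval lay within 2-fold for 58 of the 69, against 94.7% of all probe sets tested. In limma 3 of the 69 had an unadjusted p under 0.05, against 2.51% of all probe sets.

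**Figure D5:**
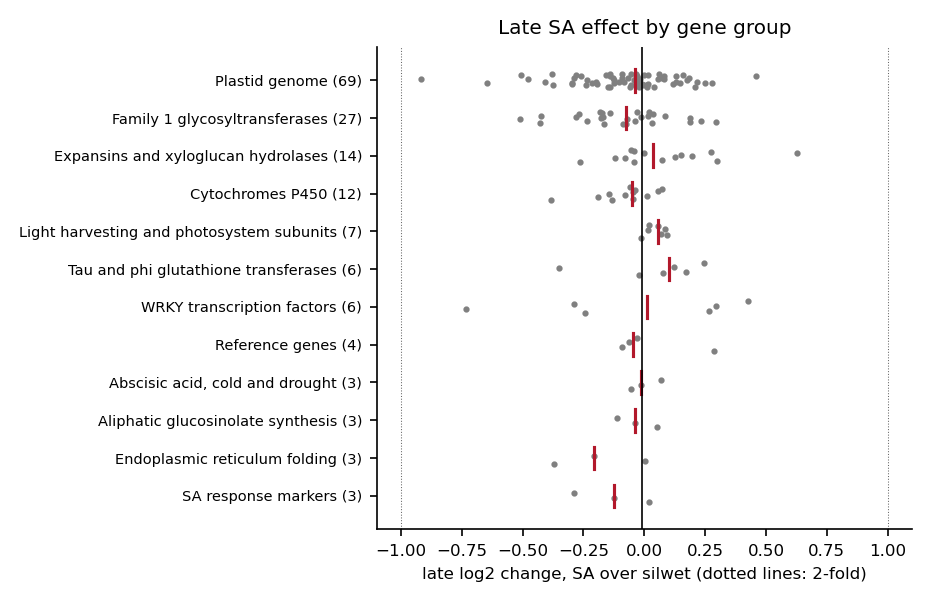
Late log2 change of SA over silwet for each tested member (grey points) of the gene groups with at least 3 tested members, number in brackets, with the group median in red and the median of all probe sets as the black line. Dotted lines mark 2-fold, and every group median lies between -0.21 and 0.10.

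The SA effect at 52 h was also set against that at 28 h. At least a 2-fold difference in size between both effects was found for 316 probe sets (2.15%), none of which passed limma's test. The 3 paired differences of 52 h lay above those of 28 h for 488 probe sets (3.32%) and below them for 590 (4.02%). A random order of the paired differences would give a larger share in each direction. Named among these 488 and 590 by the signed difference, 52 h minus 28 h, those higher at 52 h were AT1G52990, AT5G57500, AT4G31030, AT1G72920 and atpH. AT5G57500 was below the filter level on 8 of the 12 late arrays, AT1G52990 and AT1G72920 on 5 each, and AT4G31030 and atpH on 0. Higher does not mean a larger effect, as AT1G52990 had -0.95 at 28 h and 0.62 at 52 h, and AT4G31030 -0.94 and 0.37. For atpH the signal was 154, 208 and 377 after silwet and 146, 173 and 322 after SA at 28 h, and 104, 277 and 412 against 346, 284 and 1208 at 52 h. SA was lower in each pair at 28 h and higher in each pair at 52 h, and the effects differed by 1.29 on the log2 scale (95% interval 0.39 to 2.20, limma adjusted p 0.999).

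Those lower at 52 h by the same signed difference were CRR22, AT1G15490, AT4G02480, AT4G16870 and AT4G26790. Of the 12 late values, 2 of CRR22, 2 of AT1G15490, 3 of AT4G02480, 4 of AT4G16870 and 5 of AT4G26790 were below the filter level. AT4G02480 had 0.44 at 28 h and -0.98 at 52 h, the larger effect in size. CRR22, a pentatricopeptide repeat protein of plastid RNA editing, had 4.77, 37.2 and 40.2 after silwet against 24.0, 46.2 and 42.8 after SA at 28 h. At 52 h it had 40.3, 46.0 and 52.4 against 7.58, 40.9 and 52.4. The difference between both effects of -1.77 (limma adjusted p 0.999) came mainly from replicate 1, whose silwet array of 28 h and SA array of 52 h were the low ones. That silwet array was also low for AT1G15490, AT4G02480 and AT4G16870, with signals of 3.03, 3.64 and 2.45. Their paired differences at 28 h were 2.65, 1.19 and 2.57 in replicate 1 and -0.09 to 0.18 in the other replicates. The interval of the difference covered both signs for AT4G02480 (-2.95 to 0.11), AT4G16870 (-2.89 to 0.18) and AT4G26790 (-2.75 to 0.07).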

How the data were processed

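The values were linear intensities, deposited by the authors as 1 table. MAS5 is the tool named in the submitters' processing notes, and neither version nor target is given in the sources used here. On every array the mean after a 2% trim was 100.009 to 100.011, so arrays had been scaled to 1 level, and median signals of the late arrays were 26.7 to 35.6. MAS5 subtracts a background, which leaves dim probe sets noisy on a log scale. No detection calls were used, and a value is called dim, or below the filter level, where it is under the 40th percentile of its own array, which was 16.4 to 20.7 on the late arrays. No arrays were identical.

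The log2 values of the deposited intensities were used with no offset and not normalized again. A probe set was tested if it was above the 40th percentile on at least 3 of the 12 late arrays, which held for 14688 of 22746, not counting 64 controls. The fit with limma 3.58.1 in R 4.3.3 (lmFit, eBayes with an intensity trend) had a mean and an SA effect for each time and the replicate number as a block, with 6 residual degrees of freedom. All p values are limma's, adjusted by Benjamini-Hochberg over all probe sets of a comparison. The scripts were tested on simulated data. Plots were made in Python 3.11.15 (matplotlib 3.10.9).

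Replicate numbers come from the labels, which call the replicates biological and do not say what arrays of 1 number shared. Deviations from the group mean of same-numbered arrays correlated at 0.84, 0.65 and 0.68 at 28 h and 0.39, 0.23 and 0.32 at 52 h, and all 12 arrays correlated best with their own number. The block is part of the comparison's definition. Precision is limited by the 3 arrays of each group.

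Gene names came from the platform annotation, which lists 14016 of 22810 probe sets, 13513 of them with 1 gene, and 503 with several are named by none. Symbols of 13436 were updated through the TAIR10.1 gene table. Of the probe sets tested, 7995 (54.4%) carried 1 gene, and of 176 members of the locus lists 36 had a named probe set, so most known SA genes are not described. No coordinates or sequences are printed. No vascular, flower or seed marker, heat shock protein, cysteine-rich receptor kinase, cytosolic ribosomal protein or mitochondrial gene matched a name or pattern used for the lists. EXPA7, a root marker, was dim on all 12 arrays.

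The members, lists and tests were chosen with earlier results of these data known. Genes are named by rule: 10 higher and 10 lower in the late effect, filled from genes with 1 sign in 6 of 6 pairs where fewer pass, 5 and 5 for the difference between times whose paired differences do not overlap, the 10 and 10 largest at 4 h, and any list member. Alternatives to the fit changed the block, arrays, normalization, offset, filter, variance model and RNA ratio.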

Additional observations from a re-analysis of the deposited data

How the results depend on the processing

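In all 29 alternatives to each of the 4 comparisons 0 probe sets passed limma's test, and the lowest adjusted p in any was 0.694 for the late mean, 0.855 at 28 h, 0.538 at 52 h and 0.129 for the difference. With no replicate block the numbers at an unadjusted p under 0.05 were 91 late, 46 at 28 h, 122 at 52 h and 64 for the difference. With a block for each pair of 1 time and number they were 559, 185, 889 and 371. The 905 for the late mean came without the silwet 28 h array of replicate 1. The share of late intervals within 2-fold was 94.7%, and 66.6% to 98.8% over the alternatives, lowest with no filter and 84.7% with no block. The median late change of the 4 h responders, signed by their 4 h direction, was -0.02 and ran from -0.09 to 0.05. None of 1286 late values of 47 named genes moved by more than the spread of the pairs (1 SD). That spread is wide for genes such as UGT76B1 and AT5G03350. In fits without 1 replicate number such a move was not possible, as the late value is a mean over the same pairs. The sign changed in 13 of 28 fits for AT3G29240, 10 of 28 for AT4G32870 and 8 of 28 for AT2G44240. UGT76B1 ran from -0.43 to 1.04. The 20 genes chosen for 1 sign in 6 of 6 pairs changed side in 0 fits, and leaving out pairs cannot change it. After the data were seen 2 fits were added, without the 52 h pair of replicate 1 and with the 3' to 5' ratio in a block within each time, with the counts at least 2-fold and the correlations of effects without that pair or replicate 1, and the use of all alternatives for the intervals, the 4 h responders and the group medians.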
